A study of Mus with 14 samples.

Results

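The 9 genes described here encode receptors, or receptor chains, through which blood stem cells and myeloid progenitors read their growth factors. They are Kit, Csf1r, Csf2ra, Csf2rb, Csf2rb2, Csf3r, Epor, Il3ra and Il6ra, a set listed by gene symbol, with earlier results of these data known, out of 32285 genes listed in each of 14 single-cell libraries. All 9 were found by symbol, and all 9 were among the 15643 genes that passed the filter on low counts when the cells of each library were summed. Each was followed per mouse, per group and per lineage, with lineages assigned from marker genes that include none of the 9.

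Kit, the receptor for stem cell factor, and Csf1r, the receptor for macrophage colony-stimulating factor, are receptor tyrosine kinases and signal as pairs of the same chain. The receptors for GM-CSF and interleukin-3 pair a ligand-specific alpha chain (Csf2ra or Il3ra) with a shared beta chain, Csf2rb, and mice carry a further beta chain, Csf2rb2, that serves interleukin-3 alone. Csf3r (G-CSF receptor) and Epor (erythropoietin receptor) pair with themselves, Il6ra binds interleukin-6 and needs the partner chain Il6st, and receptors of this second kind all work through JAK and STAT proteins.

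Single-cell 3' RNA sequencing was run on donor (CD45.2+) bone marrow cells that lacked lineage antigens and carried surface Kit, from 14 mice, 1 library per mouse. Aged, lethally irradiated CD45.1+ hosts of a secondary transplant were harvested at 20 weeks. The donor marrow had been in competition with CD45.1+ marrow in primary hosts, which had been injected with poly(I:C) to induce recombination. The groups are MxCre (3 mice), the control named for the inducible Mx recombinase, Dnmt3a (4 mice), Dnmt3a;Tnfr1KO (3 mice) and Dnmt3a;Tnfr2KO (4 mice). The last 2 join the Dnmt3a genotype with loss of a receptor for tumour necrosis factor, Tnfr1 (gene Tnfrsf1a) or Tnfr2 (gene Tnfrsf1b). The Dnmt3a allele, and whether the other groups carry the recombinase, are not given in the labels used here. Which primary host supplied which mouse is not given either. If marrow of 1 primary host went into several mice, they were not independent, and the p-values would then be too small. The sort itself required Kit protein, so the presence of Kit transcripts is not read as a finding. The Kit levels and shares below describe cells already selected on Kit protein.

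Libraries kept 1924 to 7265 cells (66895 in all) with medians of 10691 to 39098 UMIs per cell. UMIs, or unique molecular identifiers, count captured transcripts. Dnmt3a replicate 1 stood apart at the filter, with 5138 of 7257 barcodes below the minimum of 1000 UMIs. Any pair of libraries shared at most 0.297% of the smaller library's kept barcodes. As a check of the labels, Tnfrsf1b had 3.92 to 5.47 UMIs per 1000000 UMIs of the library (CPM) in Dnmt3a;Tnfr2KO against 10.2 to 17.3 in the other 11 libraries. Tnfrsf1a had 33.2 to 37.9 CPM in Dnmt3a;Tnfr1KO and 38 to 63.8 in the other 11 libraries, a gap so small that the transcript was largely retained. Dnmt3a itself had 29.5 to 38.8 CPM in Dnmt3a, 21.6 to 30.7 in MxCre, 19.0 to 22.0 in Dnmt3a;Tnfr1KO and 21.4 to 23.0 in Dnmt3a;Tnfr2KO, and the range of each overlapped that of MxCre. Whether the reads cover the altered part of Dnmt3a or Tnfrsf1a is not given, so these 2 transcripts check no label.

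Cells were placed in a lineage when at least 3 of its markers were above their mean over libraries, and 17824 cells stayed unassigned. These were 21.6% to 24.8% of cells in MxCre, 13.5% to 28.7% in Dnmt3a, 22.2% to 36.2% in Dnmt3a;Tnfr1KO and 29.1% to 32.1% in Dnmt3a;Tnfr2KO. The share was thus higher in every Dnmt3a;Tnfr2KO library than in any MxCre or Dnmt3a library. The sets held 14215 granulocyte-like, 12083 monocyte-like, 8491 stem-like (stem and multipotent markers), 5238 erythroid-like, 3089 B-lymphoid-like, 2621 megakaryocyte-like and 1652 basophil/mast-like cells. A further 1375 cells were gathered by dendritic markers, but Ighm, Flt3 and Satb1, which are not on that list, were among their 10 leading genes, so they are called the Tcf4 set after a marker that led them. The 105 eosinophil-like and 202 T, NK and innate lymphoid-like cells were too few per library for a test. The B-lymphoid-like cells were shallow (median 3937 UMIs, against 28447 in monocyte-like cells), were held by 8 libraries at 20 cells or more, and came mostly from Dnmt3a replicate 4, with 2103 of them. Levels below are CPM of the summed cells, given as mean ± SD over mice. The 9 genes were compared between neighbouring lineages of their own order by an exact paired permutation test over mice on log2(CPM + 10), with Benjamini-Hochberg adjustment over all 63 such pairs, of which 34 differed.

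**Figure D1:**
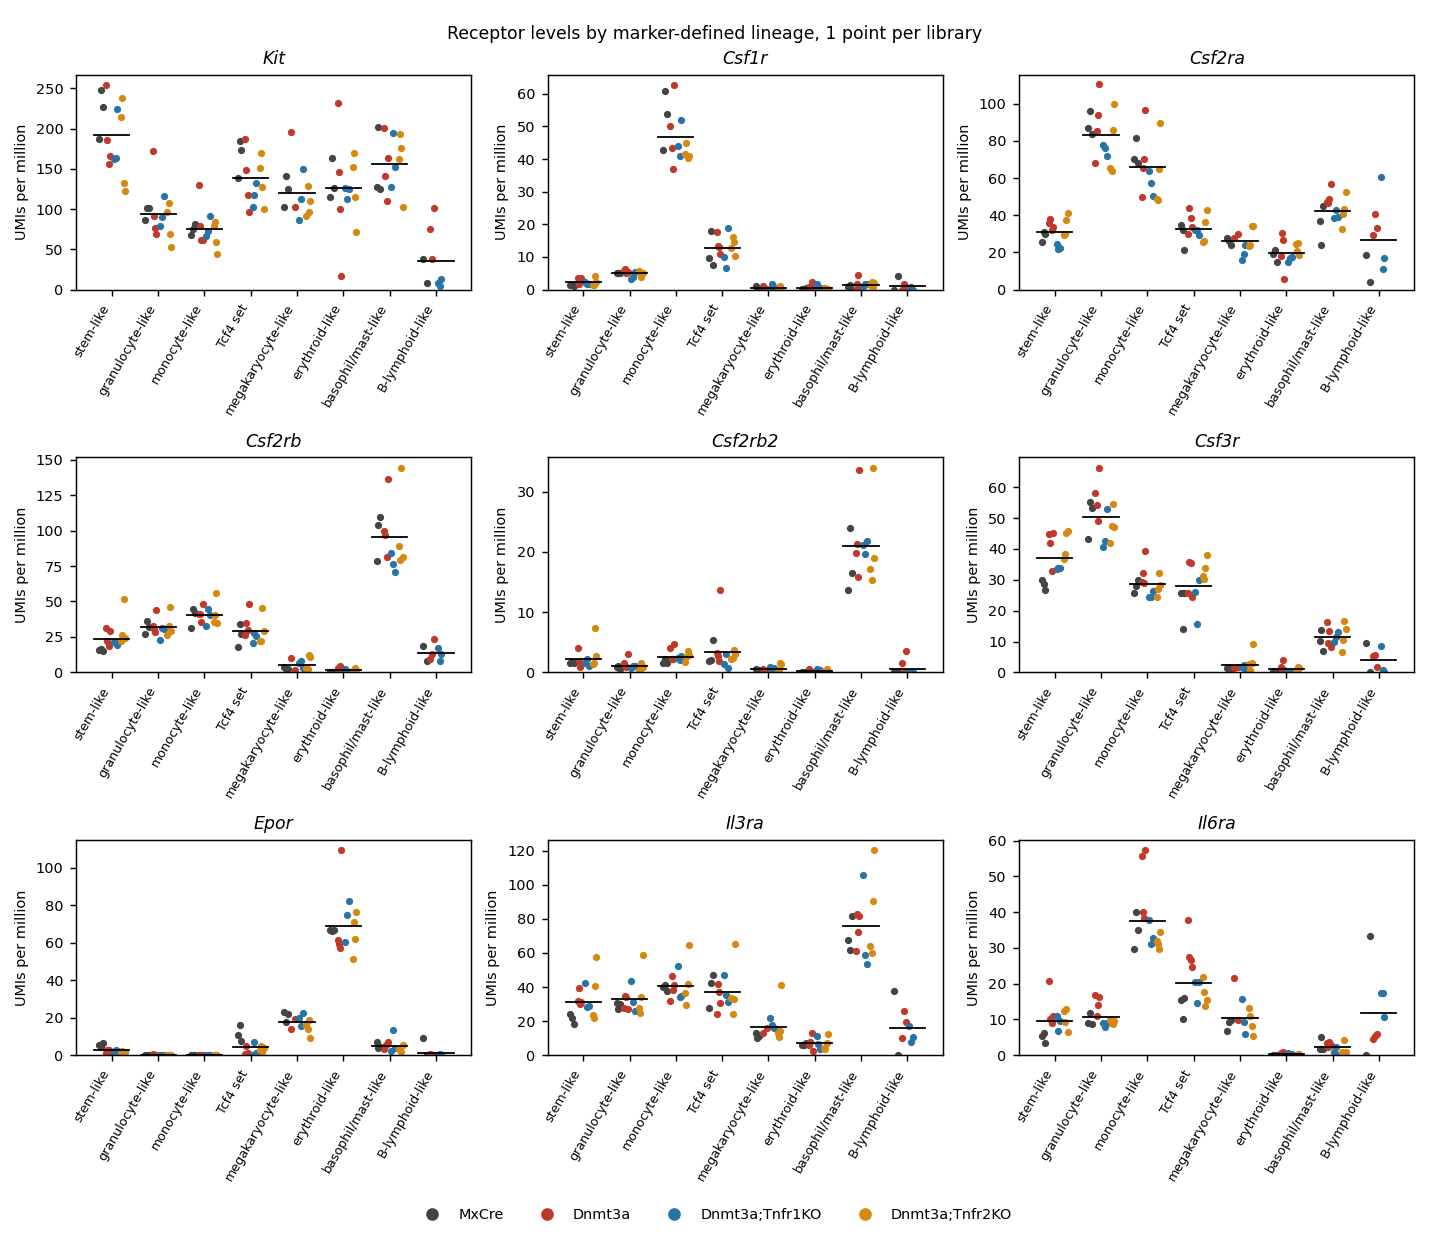
Level of each receptor gene (CPM, linear axes from 0, 1 scale per panel) in 8 marker-defined sets, with 1 point per library coloured by group and a black line at the mean over libraries. Csf1r peaks in monocyte-like cells at 46.8 CPM and Epor in erythroid-like cells at 68.9 CPM, while Kit is spread over all sets and is lowest in B-lymphoid-like cells at 35.9 CPM.

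Kit was highest in stem-like cells, at 192 ± 43.0 CPM (14 mice, lowest 122, highest 255). Basophil/mast-like cells followed at 156 ± 34.2 CPM, below the stem-like cells of the same mouse in 12 of 14 mice (exact permutation test, adjusted p = 0.0169). From basophil/mast-like cells on through the Tcf4 (139 ± 31.1), erythroid-like (127 ± 49.2) and megakaryocyte-like (120 ± 31.0, 12 mice) sets, none of the 3 steps passed the test. Granulocyte-like cells had 93.7 ± 28.4 CPM, below megakaryocyte-like cells in 11 of 12 mice (exact permutation test, adjusted p = 0.00280), and monocyte-like cells 75.2 ± 19.8, a step down in 14 of 14 mice (exact permutation test, adjusted p = 0.000592). This p is the least that 14 mice can give after adjustment in these tests, and it recurs below. A Kit transcript was caught in a median of 91.3% of stem-like cells, 75.2% of monocyte-like cells and 17.4% of B-lymphoid-like cells. After each cell was thinned to 3000 UMIs, leaving out shallower cells, these shares were 44%, 17.1% and 5.75%, the same order at equal depth. Under a stricter lineage rule, with 1 more marker asked for, basophil/mast-like cells had 208 CPM of Kit and stem-like cells 207, so the order of these sets depends on the rule. The B-lymphoid-like shares rest on the 5 libraries with enough such cells.

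Within Dnmt3a, Kit was most spread out in the erythroid-like sums, where the 4 libraries had 232, 147, 100 and 17.2 CPM. Replicate 1 was the highest of its group in all kept cells (182 CPM) and in the granulocyte-like (172) and monocyte-like (130) sums. This library also had the greatest median depth, and its part in the Kit levels was not tested.

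Csf1r, which drives monocyte and macrophage formation, was concentrated in monocyte-like cells, at 46.8 ± 7.89 CPM (37.0 to 62.8). The Tcf4 set had 12.8 ± 3.85 CPM and granulocyte-like cells 4.99 ± 0.814, each lower than the set before it in 14 of 14 mice (exact permutation test, adjusted p = 0.000592 for both). Stem-like cells had 2.19 ± 0.892 CPM, and the 4 remaining sets had means of 0.555 to 1.40 with no step between neighbours. Monocyte-like cells held 75.6% ± 4.8 of all Csf1r UMIs of a library. The share of cells with a Csf1r transcript was 67.2% among them and 0.921% among erythroid-like cells, which serve as the background here, at median depths of 28447 and 18774 UMIs.

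Kit and Csf1r transcripts were also looked for in the same cell. Among cells thinned to 3000 UMIs, a median of 0.540% carried both over all kept cells, against 0.967% from the product of the shares, and the observed share was the lower in 14 of 14 libraries. Within monocyte-like cells alone the medians were 1.85% and 2.34%, with the observed share above the product in 3 of 14 libraries.

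Csf2ra, the GM-CSF alpha chain, was highest in granulocyte-like cells at 83.3 ± 13.7 CPM, followed by monocyte-like cells at 66.1 ± 15.1 and basophil/mast-like cells at 42.4 ± 8.26. The first step held in 14 of 14 mice (exact permutation test, adjusted p = 0.000592), and so did the second. The Tcf4 set had 32.8 ± 6.37 CPM, again a step down, in 13 of 14 mice (exact permutation test, adjusted p = 0.00513). From there through stem-like (30.9 ± 6.01), B-lymphoid-like (26.8 ± 18.2) and megakaryocyte-like cells (25.9 ± 5.48) none of the 3 steps passed. Erythroid-like cells were lowest at 19.6 ± 6.08 CPM, below megakaryocyte-like cells in 10 of 12 mice (exact permutation test, adjusted p = 0.00513). A Csf2ra transcript was seen in 35.5% of erythroid-like cells and in 5.20% of T, NK and innate lymphoid-like cells (2 libraries), or in 5.96% and 2.29% after thinning to 3000 UMIs. The part of free RNA in these low shares was not tested.

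Il3ra, the interleukin-3 alpha chain, had its peak in basophil/mast-like cells at 75.9 ± 19.3 CPM. Monocyte-like cells had 40.8 ± 8.96, the Tcf4 set 37.2 ± 11, granulocyte-like cells 32.8 ± 8.94 and stem-like cells 31.4 ± 10.6 CPM. The drop from the first to the next set held in 14 of 14 mice (exact permutation test, adjusted p = 0.000592), whereas granulocyte-like and stem-like cells were not told apart (adjusted p = 0.367). Megakaryocyte-like cells had 16.6 ± 8.34 CPM and erythroid-like cells 7.08 ± 3.27.

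The shared beta chain Csf2rb, like the interleukin-3 alpha chain, was highest in basophil/mast-like cells at 95.1 ± 22.2 CPM, then 40.7 ± 6.62 in monocyte-like, 32.2 ± 6.32 in granulocyte-like, 29.4 ± 8.79 in Tcf4 and 23.9 ± 9.46 in stem-like cells, and each of these 4 steps passed the exact permutation test (adjusted p from 0.000592 to 0.0447). Megakaryocyte-like and erythroid-like cells were low, at 5.48 ± 3.78 and 1.38 ± 1.43 CPM. Csf2rb transcripts were caught in 66.3% of basophil/mast-like cells and in 1.66% of erythroid-like cells, at median depths of 16319 and 18774 UMIs. Over 106 sums of 1 lineage in 1 library, Csf2rb and Il3ra had a Pearson r of 0.89 on log2(CPM + 10), the highest of the 36 member pairs. These points share libraries and lineages, so the value is a description only.

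Csf2rb2, the beta chain for interleukin-3 alone, was a low transcript outside basophil/mast-like cells, which had 20.9 ± 6.14 CPM against 3.38 ± 3.15 in the Tcf4 set (higher in 14 of 14 mice, exact permutation test, adjusted p = 0.000592). Every other set had a mean below 3 CPM. The gene lies beside its near copy on mouse chromosome 15 (Csf2rb2 at chr15:78282507-78305721 and Csf2rb at chr15:78325800-78351001, RefSeq GRCm38.p6), 20079 bases apart. Reads that fit both copies may have been split or dropped by the authors' counting, so the levels of both are uncertain.

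Alpha and beta chains were also looked at within cells thinned to 3000 UMIs. In monocyte-like cells a median of 2.62% carried both Csf2ra and Csf2rb, against 2.07% from the product of the shares, with the observed share the higher in 14 of 14 libraries. In basophil/mast-like cells 5.65% carried both Il3ra and Csf2rb, against 5.77%, with 9 of 14 libraries above the product.

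Csf3r, through which G-CSF drives neutrophil formation, was highest in granulocyte-like cells at 50.5 ± 7.27 CPM. Stem-like cells came next at 37.0 ± 6.63 CPM, above monocyte-like cells (28.6 ± 4.06) in 13 of 14 mice (exact permutation test, adjusted p = 0.00144). Monocyte-like cells and the Tcf4 set (28.0 ± 7.08) were not told apart (adjusted p = 0.680), basophil/mast-like cells had 11.5 ± 3.20, and megakaryocyte-like and erythroid-like cells had 2.40 ± 2.27 and 0.980 ± 1.08 CPM. A Csf3r transcript was seen in 42.4% of stem-like cells and in 1.15% of erythroid-like cells, at median depths of 15768 and 18774 UMIs.

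Epor, which keeps red cell precursors alive, was highest where Csf3r was lowest. Erythroid-like cells had 68.9 ± 14.2 CPM and megakaryocyte-like cells 17.8 ± 4.12, lower in 12 of 12 mice with both sets (exact permutation test, adjusted p = 0.00154). Basophil/mast-like (5.06 ± 2.84), Tcf4 (4.52 ± 4.63) and stem-like cells (2.66 ± 1.74) formed a low tier without steps, and granulocyte-like and monocyte-like cells had 0.152 ± 0.120 and 0.140 ± 0.101 CPM. A transcript was seen in 62.4% of erythroid-like cells, 3.89% of stem-like cells and 0.302% of monocyte-like cells. Erythroid-like cells held 71.7% ± 11.6 of a library's Epor UMIs, and the Pearson r of Epor with Csf3r over the 106 sums was -0.71.

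Il6ra, the ligand-binding chain for interleukin-6, was highest in monocyte-like cells at 37.5 ± 8.81 CPM and next in the Tcf4 set at 20.1 ± 7.20 (lower in 14 of 14 mice, exact permutation test, adjusted p = 0.000592). B-lymphoid-like (11.9 ± 10.7), granulocyte-like (10.7 ± 2.90), megakaryocyte-like (10.5 ± 4.56) and stem-like cells (9.60 ± 4.24) came next, with no step among them that passed. The step from the Tcf4 set to B-lymphoid-like cells did not pass either (lower in 6 of 8 mice, exact permutation test, adjusted p = 0.126). Basophil/mast-like and erythroid-like cells had 2.21 ± 1.5 and 0.310 ± 0.263 CPM. Monocyte-like cells held 54.6% ± 7.2 of a library's Il6ra UMIs.

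For each receptor the 3 genes with the most similar profile over the 106 sums were named, among 4286 genes that reached a mean of 50 CPM in some lineage and were not markers or members. Epor was most like Ces2g (Pearson r = 0.95), Abcb4 (0.949) and Smim1 (0.947). Csf3r was most like Hk3 (0.923), Plppr3 (0.904) and Lbp (0.892). Csf2rb was most like Slc4a8 (0.91), Man2b1 (0.90) and Cebpa (0.891), the last a transcription factor of myeloid cells, and Il3ra shared Man2b1 (0.861) with it, followed by Itm2b (0.857) and Fut7 (0.846). Csf2rb2 was most like Lmo4 (0.894), Fam129a (0.876) and Padi2 (0.862). Csf1r and Il6ra had Cfp in common (0.877 and 0.77), with Serpinf1 and Gria3 (both 0.827) for Csf1r and Lactb (0.795) and Soat1 (0.762) for Il6ra. Csf2ra was most like Tmed9 (0.906), Sec61b (0.902) and Pdia6 (0.892), which serve protein folding and export in the endoplasmic reticulum. Kit was most like Ocrl (0.838), Spn (0.836) and Ankrd13a (0.82).

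The first comparison of groups asks how these receptors differed between the Dnmt3a genotype and its control. UMIs were summed per library and tested with the quasi-likelihood test of edgeR, all 14 libraries in 1 model, with Benjamini-Hochberg adjustment over all genes. Over all kept cells 1 of the 9 receptors, Il6ra, passed at an adjusted p below 0.05, where 2.27% of all genes passed. Epor, Csf2rb2 and Il3ra also had groups that did not overlap, which makes 4 of 9, where 19.9% of all genes tested had none. In these sums a change of level per cell and a change in the mix of lineages cannot be told apart.

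Il6ra had 9.89, 13.9 and 9.84 CPM in the MxCre libraries and 29.8, 17.1, 20.3 and 24.6 CPM in the Dnmt3a libraries. Every Dnmt3a library was above every MxCre library. The fitted log2 fold change was 0.93 (SE 0.216, edgeR adjusted p = 0.0439), which is 1.91-fold. This call is close to the threshold, since it held in 8 of 22 alternative analyses (adjusted p 0.00142 to 0.184), and leaving out any MxCre library ended it (0.0989 to 0.184). So did leaving out Dnmt3a replicate 1 (0.0867), 3 (0.0718) or 4 (0.05004), Dnmt3a;Tnfr1KO replicate 3 (0.0676) or any Dnmt3a;Tnfr2KO library (0.0527 to 0.0567). Monocyte-like cells, the main source of Il6ra, were 6.98% to 12.4% of cells in MxCre and 12.6% to 23.5% in Dnmt3a.

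Epor over all cells had 16.2, 10.8 and 12.8 CPM in MxCre and 7.37, 9.04, 2.22 and 5.39 in Dnmt3a, with all Dnmt3a libraries below MxCre. The fitted log2 difference of -1.26 (SE 0.589) did not pass (edgeR adjusted p = 0.214). Erythroid-like cells, its main source, were 7.97% to 17.2% of cells in MxCre and 2.08% to 12.1% in Dnmt3a. Csf2rb2 (0.86, adjusted p = 0.132), Csf1r (0.56, 0.149), Csf2rb (0.41, 0.236), Csf3r (0.32, 0.333), Il3ra (0.25, 0.674), Csf2ra (0.19, 0.697) and Kit (-0.29, 0.524) had fitted log2 differences that did not pass the edgeR test either. The median over the 9 receptors was 0.32, against 0.03 over all genes tested. A list of 25 other cytokine receptors, read further below, also had a median of 0.32, with 17 higher and 8 lower.

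**Figure D2:**
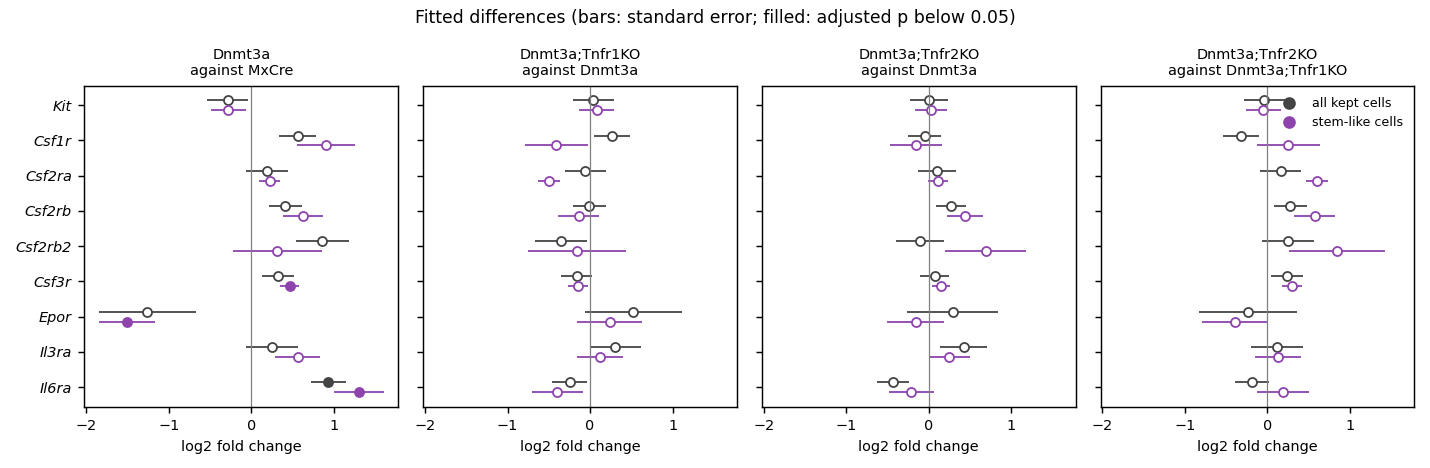
Fitted log2 fold change of each receptor gene with its standard error, in the 4 group comparisons, for all kept cells (grey) and stem-like cells (purple). Filled points passed the edgeR test, namely Il6ra in both sums and Csf3r and Epor in stem-like sums, all in Dnmt3a against MxCre.

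Within stem-like cells 3 of the 9 receptors passed in Dnmt3a against MxCre. In this set of sums 10.9% of all genes passed. Over the 8 tested lineages, with 5 to 9 receptors tested in each, 3 pairs of receptor and lineage passed. All of them were in the stem-like set. The share of all gene and lineage pairs that passed was 2.99%. Il6ra and Csf3r rose and Epor fell. For 7 of the 9 receptors the 2 groups did not overlap in stem-like sums, as held for 23.4% of all genes tested. The median of the 9 log2 differences was 0.46, against 0.01 over all genes. In the list of other cytokine receptors 21 were tested here, with a median of 0.20, 14 higher and 7 lower.

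Il6ra in stem-like cells had 5.42, 6.19 and 3.53 CPM in MxCre and 20.9, 10.2, 9.05 and 10.9 CPM in Dnmt3a. All 4 Dnmt3a libraries were higher, and replicate 1 stood above the other 3. The log2 fold change was 1.30 (SE 0.306, edgeR adjusted p = 0.0159), a 2.47-fold rise. It passed in 21 of 24 alternatives, and also without Dnmt3a replicate 1 (0.98, adjusted p = 0.0485), but not without MxCre replicate 3 (1.07, 0.107), with each cell thinned to 3000 UMIs (1.30, 0.0916) or with lineages from thinned markers (1.16, 0.162).

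Csf3r in stem-like cells had 29.8, 28.8 and 26.6 CPM in MxCre and 44.8, 41.9, 33.0 and 45.1 CPM in Dnmt3a, again without overlap. The rise was smaller and more even, at 0.46 on the log2 scale (SE 0.116, edgeR adjusted p = 0.0211), or 1.38-fold. It passed in 17 of 24 alternatives. Without MxCre replicate 2, MxCre replicate 3 or Dnmt3a replicate 4 the adjusted p was 0.0788, 0.128 and 0.0516. It also did not pass with only the 2 groups fitted (0.0577), under the stricter lineage rule (0.0614), with thinned cells (0.43, adjusted p = 0.193) or with lineages from thinned markers (0.44, adjusted p = 0.25).

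Epor in stem-like cells had 5.27, 4.54 and 6.81 CPM in MxCre and 1.43, 2.60, 2.84 and 1.08 CPM in Dnmt3a. These values rest on few UMIs, namely 106, 33 and 131 in MxCre and 19, 26, 32 and 6 in Dnmt3a. Each Dnmt3a library was below each MxCre library, and the transcript fell by 1.51 on the log2 scale (SE 0.333, edgeR adjusted p = 0.0121), to 0.352 of the control. It passed in 21 of 23 alternatives, though not without MxCre replicate 3 (-1.35, adjusted p = 0.0852) or with thinned cells (-1.64, adjusted p = 0.103). In erythroid-like cells, where Epor is abundant, MxCre had 66.8, 66.1 and 66.9 CPM and Dnmt3a 61.3, 59.5, 57.5 and 109 CPM. There 3 Dnmt3a libraries lay below the controls and replicate 4 above them.

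**Figure D3:**
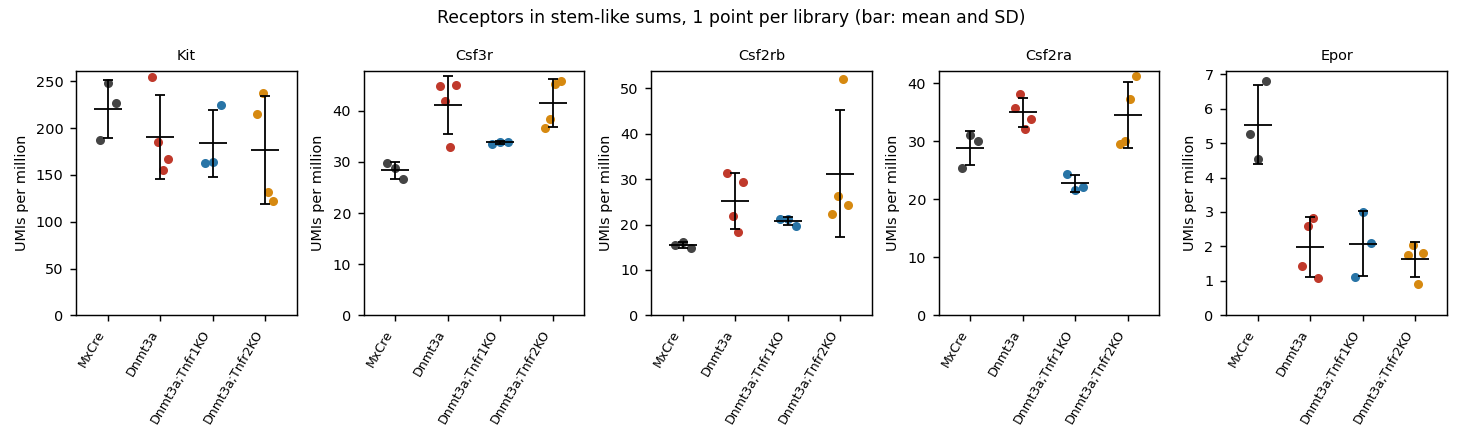
Kit, Csf3r, Csf2rb, Csf2ra and Epor in the stem-like cells of each library (CPM, axes from 0), by group, with a bar at the mean and its SD. MxCre lies at 26.6 to 29.8 CPM for Csf3r and at 4.54 to 6.81 CPM for Epor, outside the range of the Dnmt3a libraries.

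Markers of later cells differed in the same stem-like sums. The 6 monocyte markers together had 40.9 to 49.5 CPM in MxCre and 60.6 to 105 in Dnmt3a, and the 8 granulocyte markers had 152 to 194 and 235 to 483. The 8 megakaryocyte markers had 138 to 195 CPM in MxCre and 47.0 to 86.9 in Dnmt3a, and Gata1 had 12.9 to 18.3 and 8.26 to 11.5. Gata2 (118 to 145 and 94.9 to 119) and Klf1 (0.963 to 3.73 and 1.08 to 3.39) overlapped. The 8 erythroid markers overlapped, at 15.7 to 24.9 and 3.59 to 24.5 CPM, as did the 8 stem markers, at 674 to 866 and 659 to 795. The lymphoid gene Dntt had 45.1 CPM in Dnmt3a replicate 1, the library with the highest Il6ra, against 0.710 to 4.50 in the other 3 Dnmt3a libraries and 0.831 to 2.89 in MxCre. Dntt also had 25.1 to 32.9 CPM in Dnmt3a;Tnfr1KO and 1.88 to 44.4 in Dnmt3a;Tnfr2KO. Every stem-like Il6ra value of both Tnfr groups lay below the 20.9 CPM of Dnmt3a replicate 1. The values of each Tnfr group overlapped the Il6ra values of the other 3 Dnmt3a libraries. The part of all these genes in the differences of Il6ra, Csf3r and Epor was not tested.

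The other receptors in stem-like cells did not pass the edgeR test in this comparison. Il3ra had 24.0, 21.7 and 18.4 CPM in MxCre and 31.6, 39.3, 30.3 and 31.2 in Dnmt3a (log2 difference 0.56, SE 0.274, adjusted p = 0.197). Csf2rb had 15.5 ± 0.718 CPM in MxCre and 25.3 ± 6.12 in Dnmt3a (0.62, SE 0.241, adjusted p = 0.105). It passed in 3 of 24 alternatives, namely the fit on the MxCre and Dnmt3a groups alone (adjusted p = 0.0402), no filter on low counts (0.0448) and without Dnmt3a;Tnfr2KO replicate 3 (0.0143). Csf1r had 1.42 ± 0.148 and 2.81 ± 0.788 CPM (0.90, adjusted p = 0.107), and Csf2ra 28.9 ± 3.01 and 35.0 ± 2.57 (0.22, adjusted p = 0.279). These 4 genes all had Dnmt3a libraries above every MxCre library. Csf2rb2 (0.31, or -0.24 without Dnmt3a replicate 1, adjusted p = 0.767 and 0.842) and Kit (221 ± 30.9 against 191 ± 44.5 CPM, log2 difference -0.28, adjusted p = 0.432) overlapped.

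Outside the stem-like set no receptor passed the edgeR test as set up in Dnmt3a against MxCre, though some did under an alternative. Il6ra had fitted log2 differences of 0.88 in the Tcf4 set (SE 0.227, edgeR adjusted p = 0.0553), 0.62 in megakaryocyte-like, 0.36 in granulocyte-like and 0.27 in monocyte-like cells, and -2.17 in B-lymphoid-like cells, where the MxCre values were 0 and 33.4 CPM from 25 and 55 cells. In the Tcf4 set MxCre had 15.4, 10.0 and 15.9 CPM and Dnmt3a 37.8, 27.5, 26.6 and 24.6, without overlap, and the difference passed in 3 of 21 alternatives, with the replicate block (adjusted p = 0.0246), no filter on low counts (0.0330) and at least 3000 UMIs per cell (0.0362). Epor in the Tcf4 set had 7.59 to 16.1 CPM in MxCre and 0 to 5.09 in Dnmt3a (edgeR adjusted p = 0.0963), from 0 to 23 UMIs per library. It passed in 3 of 21 alternatives, with no filter on low counts (0.00391), with the replicate block (0.0200) and without Dnmt3a replicate 2 (0.0200). Other genes differed in this mixed set. Gata2 had 116 to 181 CPM in MxCre and 41.9 to 75.3 in Dnmt3a, and Pf4 18.6 to 34.2 and 2.73 to 6.44. Gata1 (22.0 to 58.2 and 5.46 to 22.7) and Klf1 (5.31 to 22.8 and 1.40 to 5.76) overlapped. So did the erythroid markers together (45.5 to 124 and 4.77 to 63.1) and Dntt (7.45 to 17.5 and 12.3 to 349). Their part in the Il6ra and Epor differences was not tested. The share of all genes without overlap was not taken in the Tcf4 set. Kit in B-lymphoid-like cells passed in 1 of 13 alternatives, with no filter on low counts (1.89, adjusted p = 0.0212), against 1.79 (adjusted p = 0.201) in the fit with it.

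**Figure D4:**
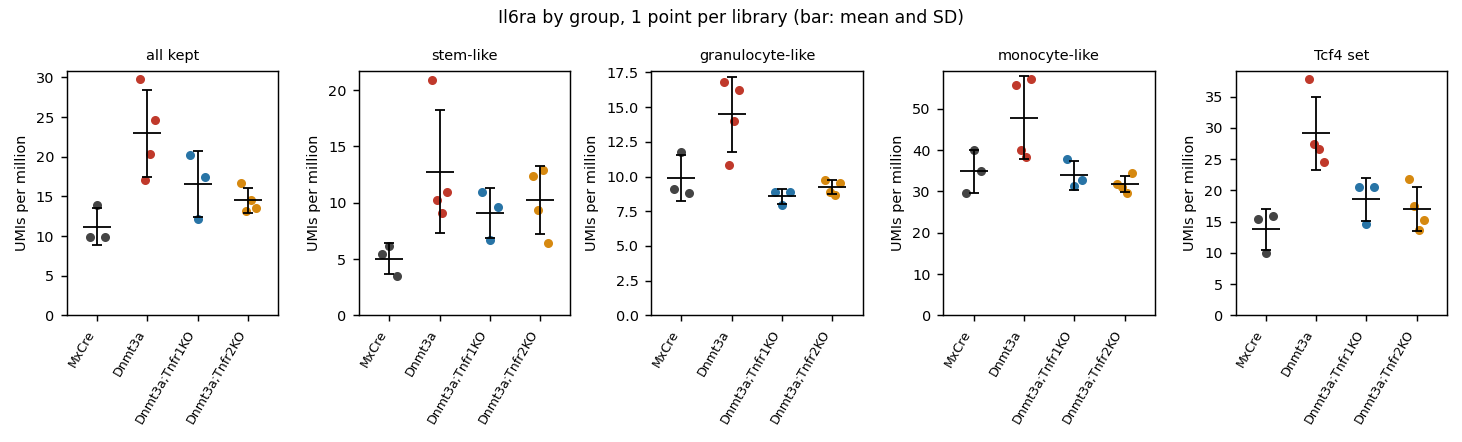
Il6ra per library by group in all kept cells and in 4 of the lineage sets (CPM, axes from 0), with a bar at the mean and its SD. The Dnmt3a libraries reach 29.8 CPM over all kept cells, above the 9.84 to 13.9 CPM of MxCre, and the granulocyte-like values of both Tnfr groups lie below all Dnmt3a values.

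The remaining comparisons ask whether loss of a TNF receptor changed the receptors on the Dnmt3a background. Those of each Tnfr group against Dnmt3a share the Dnmt3a libraries with each other and with the comparison above, and the third, between the Tnfr groups, shares their libraries. Over all kept cells none of the 9 receptors passed the edgeR test in any of the 3, where 0.543% of genes passed for Dnmt3a;Tnfr1KO against Dnmt3a, 0.876% for Dnmt3a;Tnfr2KO against Dnmt3a and 0.192% for Dnmt3a;Tnfr2KO against Dnmt3a;Tnfr1KO. DESeq2 called 0 as well. Before adjustment 0, 1 and 0 of the 9 had a p below 0.05, where 19.7%, 22.9% and 3.87% of all genes did. The 1 was Il6ra in Dnmt3a;Tnfr2KO, at 16.7, 13.2, 14.6 and 13.5 CPM against 29.8, 17.1, 20.3 and 24.6 in Dnmt3a (log2 difference -0.44, SE 0.195, adjusted p = 0.204). All 4 Dnmt3a;Tnfr2KO libraries were below all 4 Dnmt3a libraries. The share of all genes without overlap was not taken in these 3 comparisons, over all kept cells or within lineages. In Dnmt3a;Tnfr1KO it had 20.2, 12.1 and 17.4 CPM, overlapping Dnmt3a (-0.25, adjusted p = 0.534).

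Within lineages 1 pair of receptor and lineage passed in Dnmt3a;Tnfr1KO against Dnmt3a, 0 in Dnmt3a;Tnfr2KO against Dnmt3a and 0 between the 2 Tnfr groups. The first comparison covers 8 lineages with 5 to 9 receptors tested in each, the other 2 cover 7 lineages with 6 to 9. The shares of all gene and lineage pairs that passed were 2.29%, 1.1% and 0.129%. With DESeq2 these counts were 2, 1 and 1.

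Il6ra in granulocyte-like cells had 16.8, 10.8, 14 and 16.2 CPM in Dnmt3a, 8.91, 7.94 and 8.88 in Dnmt3a;Tnfr1KO and 9.75, 8.90, 8.68 and 9.55 in Dnmt3a;Tnfr2KO. Both Tnfr groups lay below every Dnmt3a library and MxCre had 8.83 to 11.8 CPM. The edgeR log2 differences of -0.56 (SE 0.148, adjusted p = 0.0603) and -0.47 (SE 0.134, adjusted p = 0.0652) did not pass, and DESeq2 put the adjusted p at 0.0164 and 0.0260. Without Dnmt3a replicate 2 both passed in edgeR (0.0230 and 0.0211). In monocyte-like cells Dnmt3a;Tnfr2KO had 29.7 to 34.4 CPM against 38.4 to 57.2 in Dnmt3a (-0.38, SE 0.122, adjusted p = 0.0922). Dnmt3a;Tnfr1KO had 31.2 to 37.8 CPM there, also below every Dnmt3a library (-0.30, SE 0.132, adjusted p = 0.232). In stem-like cells the Il6ra values of both Tnfr groups overlapped those of Dnmt3a (adjusted p = 0.555 and 0.770).

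Csf2ra in stem-like cells had 24.4, 21.7 and 22.2 CPM in Dnmt3a;Tnfr1KO, below the 35.8, 38.1, 32.1 and 33.9 CPM of Dnmt3a and the 29.5, 30.1, 37.2 and 41.2 CPM of Dnmt3a;Tnfr2KO. The edgeR log2 differences were -0.49 (SE 0.134, adjusted p = 0.0886) against Dnmt3a and 0.61 (SE 0.134, adjusted p = 0.157) for Dnmt3a;Tnfr2KO against Dnmt3a;Tnfr1KO, so neither passed. DESeq2 gave 0.0443 and no filter on low counts 0.0451 for the second. Csf3r, called in stem-like cells for Dnmt3a, had 33.6, 34 and 33.9 CPM in Dnmt3a;Tnfr1KO and 36.7 to 45.9 CPM in Dnmt3a;Tnfr2KO. Neither passed the edgeR test against Dnmt3a (adjusted p = 0.574 and 0.539). Epor had 1.12 to 3.01 and 0.897 to 2.06 CPM in these groups.

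The pair that passed was Kit in B-lymphoid-like cells, for which Dnmt3a;Tnfr2KO had too few cells. Kit had 75.5, 38.6 and 101 CPM in Dnmt3a replicates 1, 3 and 4, and 8.68, 4.33 and 12.9 CPM in the 3 Dnmt3a;Tnfr1KO libraries, while the 2 MxCre libraries had 37.5 and 8.36 CPM. The Dnmt3a;Tnfr1KO values rest on 1, 6 and 6 UMIs, and those of MxCre on 4 and 2. Kit fell by 3.04 on the log2 scale (SE 0.538, edgeR adjusted p = 0.0029), in a set where 15.4% of all genes passed. It passed in 16 of 18 alternatives, and not without Dnmt3a;Tnfr1KO replicate 2 (-2.35, adjusted p = 0.0601) or with the replicate block (-1.74, adjusted p = 0.182). Without Dnmt3a replicate 4, the library with most B-lymphoid-like cells, the difference was -2.66 (adjusted p = 0.00412). Dnmt3a replicate 1 had 686 CPM of the megakaryocyte gene Pf4 in these cells, against at most 37.5 in the other 7 libraries, and without it the difference was -3.05 (adjusted p = 0.00791). The 8 granulocyte markers together had 197 to 1171 CPM in these cells of Dnmt3a, 41.8 to 93.8 in MxCre and 52.7 to 3117 in Dnmt3a;Tnfr1KO, where 1 library stood far above the median of 114. Their part in the Kit difference was not tested.

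Genes of B-cell stage differed in the same sums. Igll1 and Vpreb1, which form the surrogate light chain of early B-cell precursors, had 886 to 1691 and 1669 to 2714 CPM in Dnmt3a, against 219 to 291 and 457 to 616 in Dnmt3a;Tnfr1KO. Ms4a1 and Ighd, which mark later B cells, had 29.9 to 262 and 30.2 to 42.2 CPM in Dnmt3a, against 773 to 1214 and 95.5 to 694. None of the 4 overlapped between these 2 groups, nor did Dntt (466 to 613 and 86.8 to 185 CPM). Rag1, also read in these sums, did overlap, at 64.3 to 239 and 15.9 to 69.5 CPM. The 2 MxCre libraries had 0 to 184 CPM of Igll1, 0 to 238 of Vpreb1, 380 to 619 of Ms4a1 and 338 to 414 of Ighd. The share of all genes without overlap was not taken in these sums. The part of these genes in the Kit difference was not tested. Il6ra lay the other way in these sums, with 4.62, 5.51 and 6.00 CPM in Dnmt3a and 17.4, 17.3 and 10.7 in Dnmt3a;Tnfr1KO, from 2 to 24 UMIs per library in the latter (log2 difference 1.76, SE 0.588, edgeR adjusted p = 0.0600). This difference passed with only the 2 groups fitted (adjusted p = 0.0166). Leaving out either MxCre library removes that group and gives the same fit, for Kit as well.

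**Figure D5:**
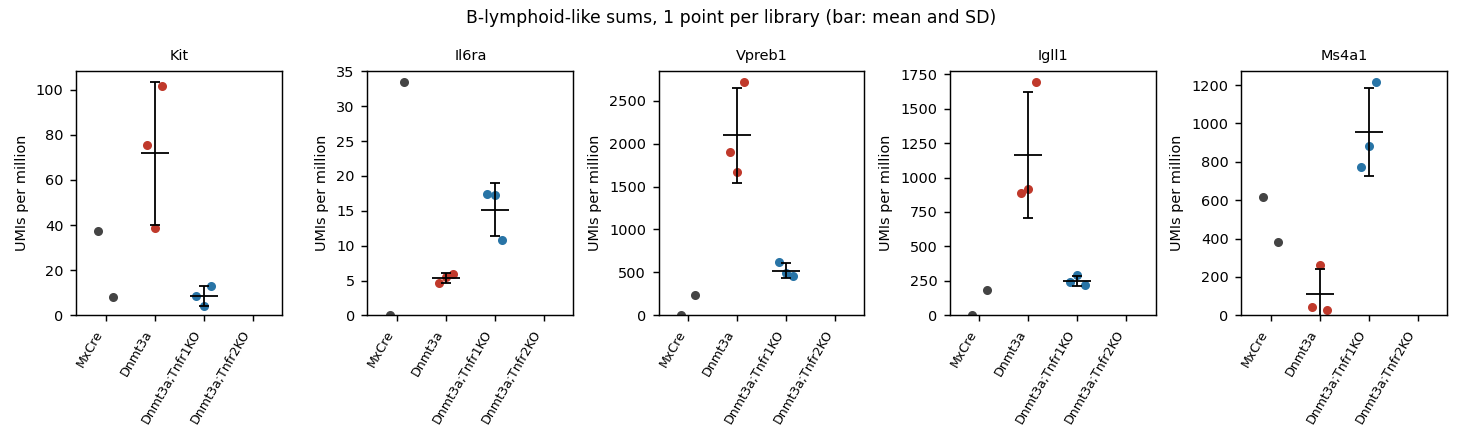
Kit, Il6ra and 3 B-cell stage genes in the B-lymphoid-like cells of the 8 libraries with at least 20 such cells (CPM, axes from 0), with a bar at the mean and its SD for groups of 3. Kit, Vpreb1 and Igll1 are higher in Dnmt3a (Kit 38.6 to 101 CPM) and Ms4a1 in Dnmt3a;Tnfr1KO (773 to 1214 CPM).

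Other genes of the pathway were read from 4 lists. Of 25 other cytokine receptors tested over all kept cells, none passed the edgeR test in any comparison. The partner chain Il6st had 6.36 ± 0.945 CPM in MxCre and 13.6 ± 5.70 in Dnmt3a (log2 difference 0.98, SE 0.240, adjusted p = 0.05001). In stem-like cells 3 of 21 passed as higher and 1 as lower in Dnmt3a against MxCre, where 1343 of all 12342 genes passed, 614 of them higher. This share of 10.9% is the background for the list counts in stem-like cells that follow. The interferon gamma receptor chains rose, Ifngr1 from 53.9 ± 0.804 to 87.3 ± 20.2 CPM (0.63, SE 0.134, adjusted p = 0.0103) and Ifngr2 from 13.6 ± 0.300 to 22.5 ± 3.93 (0.65, SE 0.169, adjusted p = 0.0245). Flt3, the receptor of a growth factor for early progenitors, rose from 18.5 ± 4.53 to 40.5 ± 16.3 CPM (1.09, SE 0.246, edgeR adjusted p = 0.0128). Il18r1, at low levels, fell from 6.09 ± 0.588 to 1.84 ± 0.382 CPM (-1.83, SE 0.236, edgeR adjusted p = 0.000829). It also was the 1 of 21 that passed in Dnmt3a;Tnfr1KO against Dnmt3a, where 0.745% of all genes passed. There it rose to 4.04 ± 1.56 CPM (1.36, SE 0.256, edgeR adjusted p = 0.0189).

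Of 20 signalling genes downstream of the receptors, none passed over all kept cells, and in stem-like cells only Pik3cd, a catalytic subunit of PI3 kinase, passed in Dnmt3a against MxCre (-0.54, SE 0.15, adjusted p = 0.0325). Of 14 feedback genes, which dampen receptor signals, 3 passed in stem-like cells in that comparison, all of them lower. The fitted values of the 14 were lower for 10 and higher for 4. Socs2 had 34.6 ± 19.6 CPM in MxCre and 2.89 ± 1.56 in Dnmt3a (-3.63, SE 0.780, adjusted p = 0.0105), Cish 10.2 ± 5.11 and 3.69 ± 0.660 (-1.5, SE 0.330, adjusted p = 0.0118) and Dok2 31.2 ± 5.99 and 19.7 ± 6.05 (-0.73, SE 0.187, adjusted p = 0.0224). Socs2 over all kept cells was higher on average in Dnmt3a, at 24.0 ± 44 against 10.2 ± 8.72 CPM (adjusted p = 0.633), with a spread wider than its mean. Dok2 was the 1 of 14 feedback genes that passed over all kept cells in Dnmt3a against MxCre, where 2.27% of all genes passed. It was lower by 1.16 (SE 0.204, edgeR adjusted p = 0.0307), in a list with 7 fitted values higher and 7 lower. Of 10 ligand genes, 4 passed the filter over all kept cells and 2 in stem-like cells, and none passed the edgeR test in any comparison. The stem-like values of Flt3, Pik3cd, Cish and Dok2 overlapped between MxCre and Dnmt3a. These and the values of Il18r1 and Il6st lie outside the naming rule and were chosen after they were seen.

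Calls of these list genes often rested on single libraries or on other settings. In stem-like cells, Dnmt3a against MxCre, Ifngr1 passed in 21 of 24 alternatives (adjusted p up to 0.194), Ifngr2 in 18 (up to 0.178) and Flt3 in 22. Pik3cd passed in 16 of these 24, Socs2 in 23, Cish in 20 and Dok2 in 19. Dok2 over all kept cells passed in 15 of 22. Only the losses on leaving out 1 library are named below. Without MxCre replicate 3 the stem-like calls of Ifngr1, Ifngr2, Flt3, Pik3cd, Socs2, Cish and Dok2 in Dnmt3a against MxCre were lost (edgeR adjusted p 0.0684 to 0.168). Without MxCre replicate 2 those of Ifngr1, Ifngr2, Pik3cd, Cish and Dok2 were lost (0.0538 to 0.142). Leaving out Dnmt3a replicate 1 ended the calls of Ifngr2, Pik3cd and Dok2 (0.0518 to 0.0626), replicate 3 that of Pik3cd (0.0788), and replicate 4 those of Ifngr2 (0.0508) and Pik3cd (0.0562). The fall of Il18r1 passed in 23 of 23 alternatives. Its rise in Dnmt3a;Tnfr1KO passed in 18 of 23 alternatives (adjusted p up to 0.281 over them). Among the alternatives that lost it were the edgeR fits without Dnmt3a replicate 1 (0.0573), Dnmt3a replicate 3 (0.0556) or Dnmt3a;Tnfr1KO replicate 2 (0.214). Dok2 over all kept cells lost its call without MxCre replicate 2 or 3, Dnmt3a replicate 1 or 3, or Dnmt3a;Tnfr1KO replicate 3 (0.0513 to 0.131).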

How the data were processed

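The 9 receptors and the gene lists were chosen with earlier results of these data known. The deposited matrices hold whole-number UMI counts per gene and barcode, made by the authors with Cell Ranger 6.0.0 after bcl2fastq 2.20.0.422 on build mm10 (GRCm38), per the submitters' processing notes. Cells were kept at 1000 UMIs, 500 genes and under 10% mitochondrial UMIs. Cells with the highest share of simulated doublets among their neighbours were removed as doublets, at 0.8% per 1000 cells.

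A cell took a lineage if at least 3 of its markers (72 markers, 10 lineages) had UMIs per 10000 above their mean over libraries and every other lineage had a lower share of its markers on. Ties stayed unassigned. That number was set after marker UMIs, but not the receptors, were seen. UMIs were summed per library, and per lineage where at least 20 cells and 2 libraries per group remained. The sums were tested two-sided with edgeR 4.0.16 (R 4.3.3; glmQLFTest, TMM, filterByExpr), and DESeq2 1.42.0 was an alternative. CPM printed in the text is the plain share of UMIs, without the TMM factor. Lineages were compared by exact two-sided sign flips over mice. Scripts were tested on simulated data. Gene positions came from RefSeq GRCm38.p6 by symbol (9 of 9 matched). List genes were named if called, at 10 CPM or more in either group and without overlap, at most 3 per list and comparison.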

Additional observations from a re-analysis of the deposited data

Results flagged for a closer look

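In 10 of 122 groups of 4 mice, 1 library lay far above the other 3. The rule would flag about 5% of independent groups by chance. These groups are not independent, since the sums of all kept cells contain the lineage sums, so the count cannot be read against that share. No reason was tested for any of them. In Dnmt3a, replicate 4 had 48.6 CPM of Csf3r over all kept cells (others 33.9 to 36.0), 109 CPM of Epor in erythroid-like cells (others 57.5 to 61.3) and 13.6 CPM of Csf2rb2 in the Tcf4 set (others 1.96 to 3.30). Dnmt3a replicate 1 had 20.9 CPM of Il6ra in stem-like cells (others 9.05 to 10.9). Dnmt3a replicate 2 had 39.3 CPM of Il3ra in stem-like cells (others 30.3 to 31.6).

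In Dnmt3a;Tnfr2KO, replicate 3 was high in the shared beta chain Csf2rb over all kept cells (49.4 CPM, others 28.1 to 31.5), in stem-like cells (52.0, others 22.3 to 26.3) and in basophil/mast-like cells (144, others 79.6 to 89.4). Replicate 2 had 13 CPM of Epor over all kept cells (others 3.27 to 4.78), and replicate 4 had 41.0 CPM of Il3ra in megakaryocyte-like cells (others 10.9 to 14).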

How the results depend on the processing

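None of the 5 called receptor differences changed sign under an alternative. Of all 254 fitted differences, over every receptor, set and comparison, 131 did under at least 1 alternative, among them 3 of the 38 behind values in the text. In stem-like cells Csf2rb2 in Dnmt3a against MxCre became -0.24 without Dnmt3a replicate 1 (range -0.24 to 0.57 without single libraries), Il6ra in Dnmt3a;Tnfr2KO against Dnmt3a became 0.11 without the same library (range -0.34 to 0.11), and Csf3r in Dnmt3a;Tnfr1KO against Dnmt3a became 0.037 with thinned cells. The count of receptors called over all kept cells in Dnmt3a against MxCre (1) became 0 with each cell thinned to 3000 UMIs, with only the 2 groups fitted and with the replicate block, and ranged from 0 to 1 when single libraries were left out. Receptor and lineage pairs in that comparison (3) became 7 without the filter on low counts, 5 with the replicate block, and 0 with thinned cells or lineages from thinned markers (range 0 to 4 without single libraries, 0 without MxCre replicate 3). For Dnmt3a;Tnfr1KO against Dnmt3a the pairs (1) became 2 with DESeq2 or only the 2 groups and 0 with the replicate block (range 0 to 2). For Dnmt3a;Tnfr2KO against Dnmt3a the pairs (0) became 1 with DESeq2 (range 0 to 1). For Dnmt3a;Tnfr2KO against Dnmt3a;Tnfr1KO they became 1 with DESeq2 or no filter (range 0 to 0). With the replicate block Kit in B-lymphoid-like cells had -1.74 (edgeR adjusted p = 0.182). Same-numbered libraries did not deviate together (r from -0.36 to 0.24 over 19 pairs, 2 of 14 libraries closest to their own number), so the numbers are not taken to pair mice. Neighbouring lineages that differed (34) became 20 under the stricter lineage rule, where 8 of 9 receptors kept their highest set (Kit did not). The cause of these shifts was not tested. In B-lymphoid-like cells of Dnmt3a;Tnfr1KO the receptor values rest on few UMIs, 1 to 6 per library for Kit.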
